A study of Mus musculus with 10 samples.

Results

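Granulocyte-macrophage progenitors (GMP) of mice that lack Dnmt3a were compared with GMP of control mice, using the 5 GMP libraries, 3 knockout and 2 control, among the 10 libraries of the study. The libraries were taken by their titles: those from mice with Dnmt3a fl/fl alleles and the Mx1-Cre transgene are called KO (named KO-178, KO-179, KO-352 by their title numbers), and those from Dnmt3a fl/fl mice without Cre are called CTRL (CTRL-346 and CTRL-350). All were C57BL/6 mice at 12 months of age, and 5 intraperitoneal injections of poly(I:C), an interferon inducer that switches on the Mx1 promoter, are listed for every sample. GMP were sorted from lineage-depleted bone marrow as Lin− Sca1− cKit+ CD34+ FcgR+ cells, and total RNA was sequenced after removal of ribosomal RNA. Every control mouse lacked Cre and every knockout mouse carried it, so loss of Dnmt3a and presence of Cre cannot be told apart, and Mx1-Cre also acts outside the blood. Only the title numbers tell the libraries of a group apart, so the p-values reflect library-to-library spread, which may be technical.

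Dnmt3a encodes an enzyme that adds methyl groups to cytosine at CpG dinucleotides that were not methylated before. In blood stem cells it helps to close genes of the stem cell programme when cells commit to a lineage, and it is among the genes most often mutated in clonal blood growth and myeloid leukaemia. GMP are the bone marrow cells from which neutrophils and monocytes arise, and the gate can also hold cells on the way to basophils, mast cells and eosinophils.

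The libraries matched the label of the gate. Levels are in CPM, counts scaled to a fixed total per library after TMM, a correction for library composition. Values of single libraries always come in the order of the group definitions above, KO first. The genes of the gate were high in all 5, Kit at 199 to 255 CPM, Cd34 at 309.9 to 439 and the Fc receptor gene Fcgr3 at 281 to 367, whereas Ly6a, which encodes Sca1, was at 0.804 to 1.71 CPM. The granule enzyme gene Mpo stood at 7028 to 13093 CPM. Genes of the lineages removed by the sort were at or near 0: Cd3e had at most 0.00786 CPM and Ly6g 0.731. Depth was 93850256 to 122658636 reads on genes. The libraries did not group by genotype first. The first principal component (55.1% of variance) ran from KO-179 (−64.3) and KO-178 (−46.2) through CTRL-350 (−2.44) to KO-352 (36.8) and CTRL-346 (76.2), the order of their shares of reads that fell outside genes (16.1%, 15.5%, 14.2%, 10.3% and 8.50%). The second (23.7%) set CTRL-350 apart, at −62.9 against −1.45 to 37.0 elsewhere. KO-352 needs care for a further reason, as its description in the labels refers to the LSK data although its title says GMP; its Kit, Mpo and Ly6a levels lay within the range of the other GMP libraries, and counts are given with and without it.

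Dnmt3a itself was lower in all 3 KO libraries. It was at 44.7, 57.4 and 17.7 CPM in KO against 127 and 99 CPM in CTRL. The groups did not overlap, but the KO libraries differed among themselves more than the CTRL libraries did on a log scale, KO-352 keeping the least. The log2 fold change of KO over CTRL was −1.50 ± 0.42 (SE) and did not pass the test over all genes (edgeR quasi-likelihood adjusted p = 0.30); without KO-352 it was −1.14 with an adjusted p of 0.049. Counts cover the whole gene, exons outside the deleted part included, and give no share of deleted cells. Of 21 genes of DNA methylation and demethylation tested, Dnmt3a included, 13 had negative and 8 positive log2 fold changes (median −0.10), and 0 were called at an adjusted p of 0.05. Fully below CTRL were 5 (23.8%, against 15.1% of all genes) and fully above 1, and 5 were lower and 0 higher at an unadjusted p under 0.05, beside 6.62% and 7.19% of all genes. The maintenance methyltransferase gene Dnmt1 was at 735, 643 and 816 CPM in KO against 935 and 805 CPM in CTRL, and Tet1, which encodes an enzyme that oxidises methylcytosine, at 30.4, 30.5 and 25.3 CPM in KO against 36.9 and 39.6 CPM in CTRL. Idh1, which encodes an enzyme making the cofactor of the TET enzymes, was at 165, 182 and 204 CPM in KO against 280.4 and 253 CPM in CTRL (log2 fold change −0.54 ± 0.13, edgeR adjusted p = 0.26).

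Among 17290 genes tested, 6 passed at an adjusted p of 0.05, which is 0.0347%: 4 were higher in KO (0.0231%) and 2 lower (0.0116%). What stands out in these libraries is a small set of genes that had few reads in control GMP and many in every KO library. An inflammasome sensor, a matrix protein, a calmodulin-like protein and a pseudogene rose, and the histamine-forming enzyme gene Hdc fell; the other lower gene is not reported here. At an unadjusted p under 0.05, 7.19% of genes were higher and 6.62% lower. DESeq2, another count test, called 2.69% higher and 1.71% lower.

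Naip6 (GRCm38, ENSMUSG00000078942, chromosome 13, 100281121 to 100317674, minus strand) belongs to the NAIP family of cytosolic sensors of bacterial proteins, which start the NLRC4 inflammasome. It was at 13.2, 13.4 and 8.88 CPM in KO against 0.0324 and 0.0627 CPM in CTRL. Both CTRL libraries together held 9 reads on the gene, while each KO library held 878 to 1708. The log2 fold change was 7.92 ± 0.42 (edgeR adjusted p = 0.0031), and the call was lost without CTRL-350 (adjusted p = 0.054) and with limma-voom (adjusted p = 0.14). Its near-identical neighbours can share reads with it. Naip2 and Naip5, looked up after Naip6, were at 149.9, 170.3 and 163 CPM in KO against 160.1 and 154 CPM in CTRL and 37.6, 40.3 and 30.6 CPM in KO against 25.1 and 34.8 CPM in CTRL, and Naip1 stayed at or below 0.165 CPM in all 5 libraries. Their values overlapped between groups for Naip2, Naip5 and Naip1, in contrast to Naip6.

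Smoc2 (ENSMUSG00000023886, chromosome 17, 14279506 to 14404790, plus strand), a secreted calcium-binding protein of the extracellular matrix, was at 4.29, 4.14 and 3.17 CPM in KO against 0.0539 and 0.0104 CPM in CTRL. The CTRL libraries held 5 and 1 reads, and KO libraries 314 to 526. Its log2 fold change was 6.87 ± 0.60 (edgeR adjusted p = 0.041). The related gene Smoc1, looked up after it, was at 2.72, 1.68 and 1.1 CPM in KO against 2.19 and 1.8 CPM in CTRL, with groups that overlapped. Calml4 (ENSMUSG00000032246, chromosome 9, 62858080 to 62875921, plus strand), which encodes a calmodulin-like protein, was at 7.3, 10.4 and 6.86 CPM in KO against 0.572 and 0.794 CPM in CTRL, a log2 fold change of 3.58 ± 0.32 (adjusted p = 0.041). An antisense pseudogene that overlaps it, Gm10653, was at 0.338 to 0.445 CPM in all libraries. Gm11942 (ENSMUSG00000094344, chromosome 4, 32964888 to 32965232, plus strand), a processed pseudogene, was at 37.2, 50.2 and 39 CPM in KO against 0.151 and 0.334 CPM in CTRL (log2 fold change 7.43 ± 0.37, adjusted p = 0.0031). As a processed pseudogene it can share reads with the gene it was copied from.

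Hdc (ENSMUSG00000027360, chromosome 2, 126593667 to 126619299, minus strand) encodes histidine decarboxylase, which makes histamine and is abundant in basophil and mast cell precursors. It was at 194, 201 and 196 CPM in KO against 418 and 399 CPM in CTRL. The 3 KO libraries lay between 194 and 201 CPM and far below CTRL, so that Hdc fell by 1.05 on the log2 scale (SE 0.10, edgeR adjusted p = 0.041). Smoc2, Calml4 and Hdc kept their direction in all 12 alternative analyses, but each kept its call without a single library only when that library was KO-352, and lost it with limma-voom. The highest adjusted p over the alternatives was 0.29 for Smoc2, 0.34 for Calml4 and 0.62 for Hdc.

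**Figure D1:**
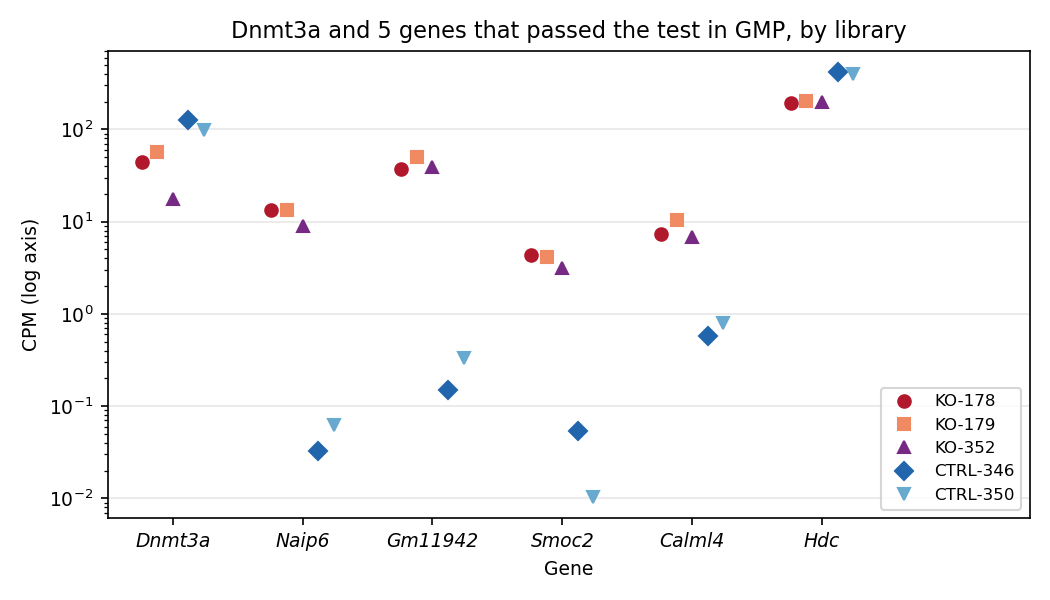
CPM on a log axis for Dnmt3a and 5 genes that passed the test, 1 point per library. Naip6, Gm11942, Smoc2 and Calml4 lie higher in all 3 KO libraries and Dnmt3a and Hdc lower, with no overlap between KO and CTRL; Naip6 runs from 0.0324 CPM in CTRL-346 to 13.4 in KO-179.

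Because Dnmt3a acts on CpG, the promoters of these genes are shown for their CpG content, which the counts did not choose. RefSeq (GRCm38.p6) gives promoters, 250 bases before to 50 bases after a start, for 11196 of the tested genes (14209 sequences), and for 3 of the genes just described and for Cgnl1, the next higher gene by p. In the sequences below, written 5′ to 3′ on the strand of the gene, capitals mark CpG. They are Naip6 at chr13:100316567-100316866, Calml4 at chr9:62857854-62858153, Hdc at chr2:126618629-126618928 and Cgnl1 at chr9:71771553-71771852.
Naip6: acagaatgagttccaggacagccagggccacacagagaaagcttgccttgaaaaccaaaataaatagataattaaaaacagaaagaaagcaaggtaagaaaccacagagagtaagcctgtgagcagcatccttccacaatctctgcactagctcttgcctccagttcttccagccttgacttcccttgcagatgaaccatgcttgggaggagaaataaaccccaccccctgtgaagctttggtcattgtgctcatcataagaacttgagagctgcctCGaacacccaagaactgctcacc
Calml4: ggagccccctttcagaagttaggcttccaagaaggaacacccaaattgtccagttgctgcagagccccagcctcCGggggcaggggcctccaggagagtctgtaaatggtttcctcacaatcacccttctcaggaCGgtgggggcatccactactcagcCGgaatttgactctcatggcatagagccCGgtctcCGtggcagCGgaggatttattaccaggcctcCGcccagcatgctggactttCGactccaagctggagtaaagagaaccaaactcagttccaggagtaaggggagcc
Hdc: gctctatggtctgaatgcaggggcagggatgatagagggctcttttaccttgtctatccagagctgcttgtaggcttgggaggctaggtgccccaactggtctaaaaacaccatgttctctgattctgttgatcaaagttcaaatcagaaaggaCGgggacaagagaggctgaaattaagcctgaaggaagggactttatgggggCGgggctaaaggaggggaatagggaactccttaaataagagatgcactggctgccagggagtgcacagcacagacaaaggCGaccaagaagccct
Cgnl1: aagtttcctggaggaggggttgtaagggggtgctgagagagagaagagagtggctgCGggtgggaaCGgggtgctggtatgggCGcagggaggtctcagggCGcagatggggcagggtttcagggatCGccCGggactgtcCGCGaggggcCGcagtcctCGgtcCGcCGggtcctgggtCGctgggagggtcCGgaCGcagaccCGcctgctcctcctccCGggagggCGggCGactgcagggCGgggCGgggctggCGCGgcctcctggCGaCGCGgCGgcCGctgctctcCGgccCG

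The Naip6 window held 1 CpG, that of Hdc 3, that of Calml4 8 and that of Cgnl1 30, beside a median of 19 over all 14209 promoters (quartiles 9 and 28). A share of 3.29% of all promoters held no more CpG than the window of Naip6, 10.3% no more than that of Hdc and 24.7% no more than that of Calml4. Of these windows that of Naip6 had the fewest, and that of Cgnl1 lay above the upper quartile. A link between CpG content and fold change was not tested. The dinucleotide CG was present in 99.0% of all promoters of this length. The windows are RefSeq starts, and no methylation was measured here. Those of Naip6 and Hdc lie inside the gene coordinates given above, downstream of where the annotated gene begins. Those of Calml4 and Cgnl1 span the beginning of the annotated gene.

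Further genes were ordered by the test among those whose KO libraries were fully separated from CTRL, with a mean of at least 1 CPM. Over all genes tested, 16.5% had all 3 KO libraries above both CTRL libraries and 15.1% all 3 below, so separation alone says little about a single gene. None of the following passed. Cgnl1, a junction protein gene related to cingulin, was at 3.76, 4.55 and 2.76 CPM in KO against 0.345 and 0.345 CPM in CTRL (log2 fold change 3.41 ± 0.35, edgeR adjusted p = 0.065). Ppp1r9a, which encodes neurabin, an actin-binding scaffold of protein phosphatase 1, was at 18.4, 18.4 and 18.8 CPM in KO against 6.85 and 7.59 CPM in CTRL (1.36 ± 0.15, adjusted p = 0.076), with very close KO values. Fcgr1, the high-affinity IgG receptor gene of monocytes, was at 4.26, 3.18 and 3.29 CPM in KO against 0.593 and 0.637 CPM in CTRL (adjusted p = 0.099).

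The zinc transporter gene Slc30a4 was at 33.1, 47.8 and 27.3 CPM in KO against 10.4 and 8.67 CPM in CTRL (log2 fold change 1.92 ± 0.26, edgeR adjusted p = 0.17). Padi4, which encodes a neutrophil enzyme that citrullinates histones, stood at 21.4, 19.5 and 25.6 CPM in KO against 7.69 and 9.19 CPM in CTRL, and the epoxide hydrolase gene Ephx2 at 2.92, 3.29 and 2.53 CPM in KO against 0.604 and 0.387 CPM in CTRL. In both, each KO library was above each CTRL library by more than the distance between the CTRL libraries. Cd4, the T helper cell coreceptor gene, was at 2.62, 3.81 and 1.64 CPM in KO against 0.129 and 0.23 CPM in CTRL (3.89 ± 0.53, adjusted p = 0.17), although Cd3e had 1 read in 1 library and none in the other 4.

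On the lower side the values were closer to CTRL. Tuba8, an alpha-tubulin gene, was at 15.1, 14.4 and 14.8 CPM in KO against 29.9 and 30.1 CPM in CTRL (log2 fold change −1.02 ± 0.12, edgeR adjusted p = 0.099). The tetraspanin gene Tspan9 was at 5.93, 5.89 and 6.74 CPM in KO against 21.5 and 15.9 CPM in CTRL (−1.59 ± 0.19, adjusted p = 0.099). Galnt10, an enzyme gene of O-linked glycosylation, was at 16.5, 14.1 and 17.5 CPM in KO against 30.8 and 31.4 CPM in CTRL, and Mgl2, a C-type lectin gene of macrophages and dendritic cells, at 30.1, 25.1 and 31.7 CPM in KO against 53.8 and 52.6 CPM in CTRL. All of these were lower in each KO library than in either CTRL library, with a KO mean at 0.332 of the CTRL mean for Tspan9 and at 0.493 to 0.545 for the others.

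Papss2, which makes the sulphate donor for sulphation, was at 53.1, 56.8 and 60.4 CPM in KO against 89.7 and 110.0 CPM in CTRL (log2 fold change −0.82 ± 0.12, edgeR adjusted p = 0.20). Wdfy1, an endosomal adaptor gene, was at 56.6, 56.1 and 67.2 CPM in KO against 119 and 101 CPM in CTRL, and shares a stretch of chromosome 1 with Mrpl44. Cnn2, which encodes calponin 2, an actin-binding protein, was at 129.9, 133 and 133 CPM in KO against 202 and 204 CPM in CTRL (−0.62 ± 0.10, adjusted p = 0.20).

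**Figure D2:**
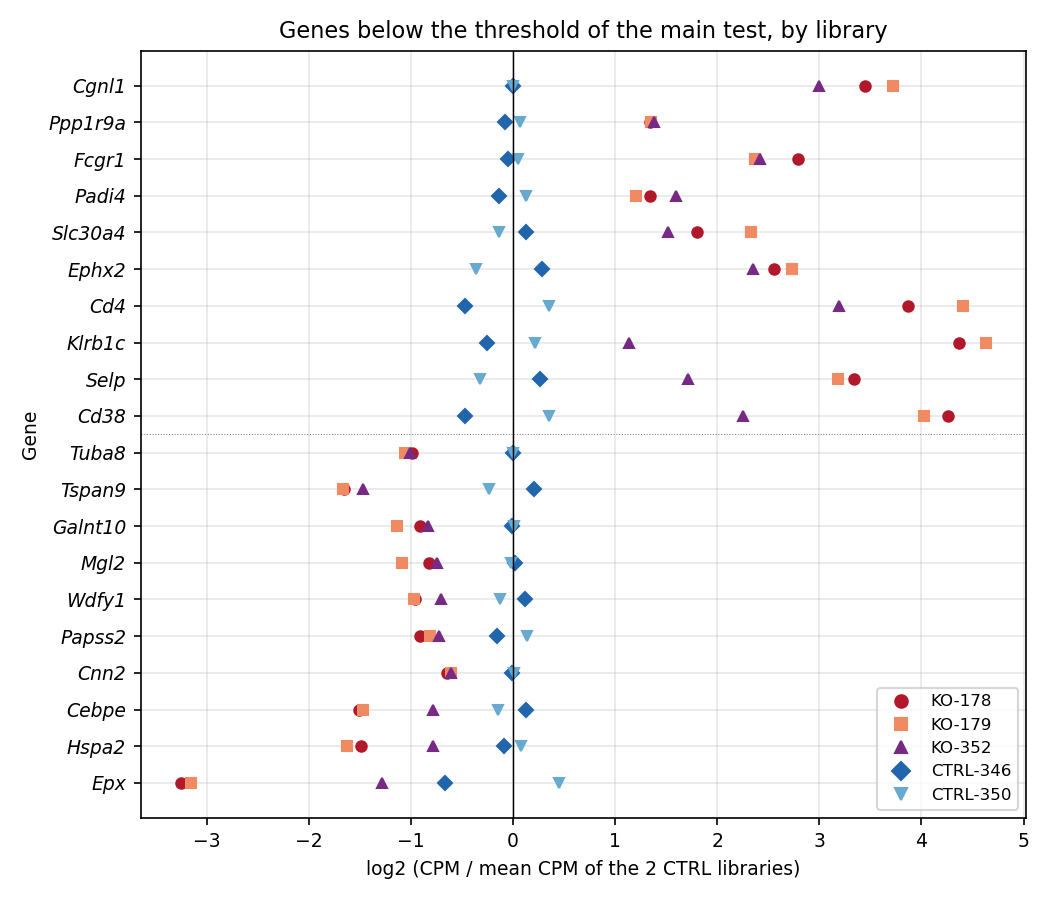
log2 of each library's CPM over the mean of the 2 CTRL libraries for 20 genes that did not pass the main test, 10 higher (upper rows) and 10 lower in KO. KO-352 lies nearer to 0 than KO-178 and KO-179 for Klrb1c, Selp, Cd38, Cebpe, Hspa2 and Epx, and close to them for Ppp1r9a, Tuba8 and Cnn2.

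Without KO-352, 172 genes passed (116 higher, 0.679% of 17087, and 56 lower, 0.328%), the 6 above among them. Genes were named from these only if every KO library, KO-352 included, lay on the same side of both CTRL libraries. A mean of at least 1 CPM was required as before. Those with the smallest p include cell surface genes that KO-352 carried at a lower level than the other KO libraries. Selp, which encodes P-selectin, was at 12.1, 10.7 and 3.88 CPM in KO against 1.42 and 0.951 CPM in CTRL. Cd38, an NAD-consuming surface enzyme gene, was at 6.58, 5.6 and 1.64 CPM in KO against 0.248 and 0.439 CPM in CTRL, and Klrb1c, which encodes the NK1.1 antigen, at 4.26, 5.12 and 0.455 CPM in KO against 0.173 and 0.24 CPM in CTRL. In all 3 genes KO-352 lay between CTRL and the other KO libraries, but its place above CTRL was required by this choice. The snoRNA gene Rnu3a was at 56.5, 63.6 and 26.1 CPM in KO against 22.5 and 25.1 CPM in CTRL.

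The lower genes with the smallest p without KO-352, under the same limits, follow. That KO-352 lay below both CTRL libraries in each was required by this choice. Cebpe, a transcription factor gene of granulocyte maturation, was at 23.8, 24.4 and 39.4 CPM in KO against 74.2 and 61.4 CPM in CTRL, with KO-352 between the other KO libraries and CTRL. Epx, the eosinophil peroxidase gene, was at 13.5, 14.4 and 52.9 CPM in KO against 81.1 and 176 CPM in CTRL, and the chaperone gene Hspa2 at 13.2, 12 and 21.6 CPM in KO against 34.8 and 39.2 CPM in CTRL. With all 5 libraries the edgeR adjusted p was 0.25 for Cebpe, 0.30 for Epx and 0.26 for Hspa2. The histone gene Hist1h4m (KO 0.124, 0.0315 and 5.91 CPM against 9.68 and 6.12 in CTRL) and the nucleotide kinase gene Cmpk2 (7.78, 8.05 and 18.5 CPM in KO against 20.4 and 19.7 CPM in CTRL) were near the CTRL level in KO-352, so their difference rests on KO-178 and KO-179.

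Gene lists of lineages and pathways were described by counts and medians, beside all genes tested, of which 51.2% had a positive log2 fold change, with a median of 0.01. Shares of members fully above or fully below CTRL are to be read against the 16.5% and 15.1% of all genes, and the range of a median is that over fits that each left out 1 library. Genes with too few reads were not tested. A member near that limit can be tested through the group where it is high alone, so its separation says little. Genes of mast cells, basophils and eosinophils were mostly lower in KO GMP. Of 17 mast cell and basophil genes tested (of 22), 16 had negative log2 fold changes and 5 (29.4%) were below CTRL in all 3 KO libraries, with a median of −1.11. Only Hdc was called. Of 10 eosinophil genes tested (of 12), 9 were negative and 7 (70%) fully below CTRL, with a median of −1.37, none called. The remaining member, the ribonuclease gene Rnase2a, went the other way, at 1.3, 1.54 and 0.101 CPM in KO against 0 and 0.0209 CPM in CTRL, with 2 reads over both CTRL libraries. In bulk RNA, fewer cells of a type and less RNA per cell cannot be told apart.

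Gzmb, a granzyme gene, was at 0.708, 1.38 and 1.77 CPM in KO against 4.33 and 12.2 CPM in CTRL. The mast cell chymase gene Cma1 had 96 and 94 reads in CTRL and 1 to 9 in KO. The basophil protease gene Prss34 was at 158, 162 and 78.4 CPM in KO against 149 and 815 CPM in CTRL, where CTRL-346 lay inside the range of KO and CTRL-350 far above. Among eosinophil genes, Prg3, a granule protein gene, was at 9.94, 9.28 and 12.9 CPM in KO against 25.9 and 64.4 CPM in CTRL (log2 fold change −2.08 ± 0.36, edgeR adjusted p = 0.24), and Siglecf, a surface lectin gene, at 41.1, 46.2 and 43.9 CPM in KO against 59.7 and 66.3 CPM in CTRL (−0.53 ± 0.11, adjusted p = 0.26). Both were below either CTRL library in all KO libraries.

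These list medians were much nearer 0 without CTRL-350. The summed level of the mast cell and basophil list was 558 to 949.7 CPM over the KO libraries, 1091 CPM in CTRL-346 and 2838 CPM in CTRL-350, and of the eosinophil list 315 to 492 CPM over the KO libraries, 614 CPM in CTRL-346 and 1595 CPM in CTRL-350. Without CTRL-350 the medians were −0.17 and −0.55, and without CTRL-346 −1.71 and −1.86. Hdc, by contrast, was at 418 and 399 CPM in CTRL-346 and CTRL-350, nearly the same in both. Relative to the CTRL mean, the mast cell and basophil list stood at −0.81, −0.45 and −1.59 in KO against −0.76 and 0.76 in CTRL, so the groups overlapped, whereas the eosinophil list stood at −1.46, −1.07 and −1.06 in KO against −0.53 and 0.53 in CTRL, with no overlap.

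Genes of the primary granules, which mark GMP, went both ways. Of 16 primary granule genes tested, 11 were negative and 5 positive, with a median of −0.08 (−0.18 to −0.05), 3 (18.8%) fully above and 1 (6.25%) fully below CTRL, none called. Mpo was at 8530.0, 7028 and 10540.4 CPM in KO against 13093 and 9935 CPM in CTRL, and the serine protease genes Prtn3 at 999.8, 654 and 1562 CPM in KO against 2308 and 1338 CPM in CTRL and Elane at 849.6, 682 and 1097 CPM in KO against 1376 and 973 CPM in CTRL. All 3 had lower KO means, with KO-352 inside the range of CTRL. The cathepsin C gene Ctsc, whose product activates granule proteases, was at 223, 182 and 190.0 CPM in KO against 142 and 145 CPM in CTRL, and the protease inhibitor gene Serpinb1a at 794, 844 and 724 CPM in KO against 679.7 and 594 CPM in CTRL, both higher in each KO library. The granule protein gene Nkg7 was at 295, 239 and 313 CPM in KO against 449.8 and 364 CPM in CTRL, lower in each. Of 24 genes of secondary granules and mature neutrophils, 21 were positive, with a median of 0.96, 2 (8.33%) were above CTRL in all KO libraries, and none was called.

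Among them S100a9, an abundant protein of neutrophils, was at 931, 1726 and 183 CPM in KO against 277 and 826 CPM in CTRL, and the iron-binding Lcn2 gene at 105, 160.5 and 42 CPM in KO against 15 and 53.8 CPM in CTRL. In both genes KO-178, KO-179 and CTRL-350 held the 3 highest values, and these 3 libraries also had the largest shares of reads outside genes. At list level KO-179 was highest (2.21), CTRL-350 lay at 0.95, and KO-352 (−0.93) lay beside CTRL-346 (−0.95). Its median was 0.11 without KO-179, 0.26 without CTRL-346, 1.38 without KO-352, 2.77 without CTRL-350 and −0.23 in a fit that included each library's share of reads outside genes. The part of that share in the result was not tested further.

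Monocyte and macrophage genes were divided. Of 25 tested, 16 were positive and 9 negative (median 0.16, −0.05 without CTRL-346 and 0.58 without CTRL-350), with 6 (24%) above and 3 (12%) below CTRL in all KO libraries and none called. The coagulation factor XIII gene F13a1, a marker of monocyte precursors, was at 1513, 1914 and 1363 CPM in KO against 894 and 1041 CPM in CTRL (log2 fold change 0.72 ± 0.17, edgeR adjusted p = 0.26). The chemokine receptor gene Ccr2 was at 334, 299 and 305 CPM in KO against 147 and 213 CPM in CTRL, and the chemokine gene Ccl9 at 370.0, 475 and 359.8 CPM in KO against 244 and 222 CPM in CTRL. These 3 genes, like Fcgr1, were higher in each KO library than in both CTRL libraries. The 3 members fully below CTRL, named after their values were seen, were the ribonuclease gene Ear2 at 1.3, 2.85 and 4.68 CPM in KO against 5.74 and 14.2 CPM in CTRL, the chemokine receptor gene Cx3cr1 at 10.7, 11.3 and 23.1 CPM in KO against 24.5 and 39.3 CPM in CTRL and Adgre1, which encodes the macrophage antigen F4/80, at 16.4, 17.9 and 13.4 CPM in KO against 19.5 and 28.8 CPM in CTRL.

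Transcription factors that direct the myeloid lineage were mostly slightly lower: 18 of 24 tested were negative and 6 (25%) fully below CTRL (median −0.21, −0.29 to −0.03, nearest 0 without CTRL-350), none called. Cebpa, which GMP formation needs, was at 170.3, 180.0 and 187 CPM in KO against 215 and 225 CPM in CTRL, a small difference with no overlap (−0.30 ± 0.10, edgeR adjusted p = 0.33). Gfi1, a repressor gene that favours neutrophils, was at 205, 199 and 192 CPM in KO against 150.03 and 141 CPM in CTRL (0.45 ± 0.10, adjusted p = 0.26). Cytokine receptor genes had 13 positive and 12 negative of 25, with a median of 0.05 (−0.07 to 0.05). The exception in size was Flt3, the receptor gene of early and lymphoid-primed progenitors, at 87.3, 155 and 71.3 CPM in KO against 13.7 and 20.3 CPM in CTRL (2.62 ± 0.38, adjusted p = 0.19). The interferon gamma receptor gene Ifngr1 was at 647, 621 and 588 CPM in KO against 459.8 and 453 CPM in CTRL, and the interleukin 1 receptor gene Il1r1 at 11.1, 17.1 and 5.92 CPM in KO against 3.53 and 2.61 CPM in CTRL.

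Genes of earlier progenitors, which Dnmt3a helps to close, were compared next. All 10 tested Hoxa and Hoxb genes (of 18) were positive, with a median of 0.59, 3 (30%) were fully above and 0 fully below CTRL, and none was called. Hoxa9, a self-renewal factor gene, was at 22.2, 28.4 and 16.5 CPM in KO against 14.2 and 11.5 CPM in CTRL, and Hoxa7 at 7.83, 8.97 and 7.54 CPM in KO against 5.81 and 4.46 CPM in CTRL. Leaving out 1 library moved the list median between 0.30 (without KO-179) and 0.70. In the fit that included each library's share of reads outside genes it was 0.22. The list stood at 0.50, 0.77 and 0.12 in KO against 0.00 in both CTRL libraries, lowest of the KO libraries in KO-352. Stem cell genes had 17 positive of 28 tested, with 5 (17.9%) fully above and 4 (14.3%) fully below CTRL. Their median was 0.16 (0.01 to 0.30, lowest without KO-179 and highest without CTRL-350). With the term for reads outside genes it was −0.04. Slamf1, which encodes the stem cell antigen CD150, was at 0.564, 0.676 and 0.182 CPM in KO against 0.0216 and 0.094 CPM in CTRL, and Robo4 at 0.488, 0.613 and 0.142 CPM in KO against 0.0647 and 0.0313 CPM in CTRL, low levels in every library. With few reads in CTRL (2 and 9 for Slamf1, 6 and 3 for Robo4), both were tested only through their KO reads. Ly6a, whose protein the gate selected against, was at 1.64, 1.71 and 1.53 CPM in KO against 0.917 and 0.804 CPM in CTRL. The most abundant members, Cd34 and Lmo2, had lower KO means instead. Cd34 was at 309.9, 367 and 366 CPM in KO against 439 and 369 CPM in CTRL, below CTRL in all KO libraries. Lmo2 was at 203, 213 and 250 CPM in KO against 272 and 224 CPM in CTRL, with groups that overlapped.

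Lymphoid priming genes had 15 positive of 21 tested, with 8 (38.1%) fully above and 4 (19%) fully below CTRL, none called. Their median was 0.32, and it was 0.20 without CTRL-346 and 0.10 with the term for reads outside genes. The list stood at 0.44, 0.37 and 0.00 in KO against −0.11 and 0.11 in CTRL, so KO-352 lay inside the range of CTRL. The chromatin organiser gene Satb1 was at 58, 62.6 and 46.7 CPM in KO against 33.5 and 36.6 CPM in CTRL, higher in each KO library. The recombinase gene Rag1 went the other way, with 3 reads over all KO libraries and 19 and 93 reads in CTRL-346 and CTRL-350.

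Lists of other cell types that could have entered the gate showed no call. B cell genes were negative for 13 of 16 tested, with 5 (31.2%) fully below CTRL. Their median was −0.74 (−0.14 without CTRL-350, −1.23 without KO-179 and −1.94 with the term for reads outside genes). Over the members with at least 1 CPM in 2 libraries it was −0.02. Vpreb3 was at 0.143, 0.0472 and 0.0809 CPM in KO against 0.453 and 0.501 CPM in CTRL and the immunoglobulin mu gene Ighm at 46.9, 51.3 and 90.7 CPM in KO against 96.7 and 119 CPM in CTRL. The summed B cell level was 159 to 190.2 CPM over the KO libraries, 200.4 CPM in CTRL-346 and 234 CPM in CTRL-350. Its part in the lower level of Rag1 was not tested. T and NK cell genes were positive for 13 of 17 (median 1.17), and the list stood at 1.39, 1.15 and −0.13 in KO against −0.30 and 0.30 in CTRL, high in KO-178 and KO-179 alone. Without KO-178 the median was 0.54, without CTRL-350 4.22, and with the term for reads outside genes 0.30.

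Dendritic cell and MHC class II genes were negative for 16 of 20 (median −0.44), which was 1.35 without CTRL-350 and −1.004 without CTRL-346. H2-DMa, which helps to load peptide on MHC class II, was at 35.3, 38.2 and 37.2 CPM in KO against 50.3 and 54.6 CPM in CTRL, below CTRL in all KO libraries, and Tcf4, a plasmacytoid dendritic cell factor gene, at 63.7, 56.8 and 59.1 CPM in KO against 47.4 and 46.7 CPM in CTRL, above. Erythroid genes had a median of 0.46, with 6 of 21 (28.6%) fully above CTRL. This median was 0.02 without CTRL-346, 1.26 without CTRL-350 and 0.005 with the term for reads outside genes. The Rh-associated glycoprotein gene Rhag was at 2.28, 2.23 and 0.495 CPM in KO against 0.0432 and 0.178 CPM in CTRL and the adducin gene Add2 at 1.32, 1.15 and 0.475 CPM in KO against 0.151 and 0.303 CPM in CTRL, whereas the abundant factor gene Nfe2 was at 85.2, 80.8 and 86.7 CPM in KO against 97.9 and 101 CPM in CTRL. Megakaryocyte and platelet genes had a median of 0.64 (0.14 without CTRL-346, 1.42 without CTRL-350 and −0.13 with the term for reads outside genes), with 2 of 18 (11.1%) fully above CTRL, Selp among them. Stromal and endothelial genes had a median of 0.54 over 13 tested, 10 of them positive (0.07 without CTRL-346 and 1.91 without CTRL-350). With at least 1 CPM in 2 libraries required, this median was −0.07. Emcn, which encodes an endothelial sialomucin, was at 0.784, 0.763 and 0.202 CPM in KO against 0.0755 and 0.198 CPM in CTRL and the Kit ligand gene Kitl at 0.105, 0.0393 and 0.131 CPM in KO against 0.0216 and 0.0209 CPM in CTRL, both low and fully above CTRL. Kitl had 2 reads in each CTRL library and was tested only through its KO reads. Tie1, an endothelial and stem cell receptor gene, was at 12.7, 8.44 and 12 CPM in KO against 25.8 and 20.4 CPM in CTRL.

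**Figure D3:**
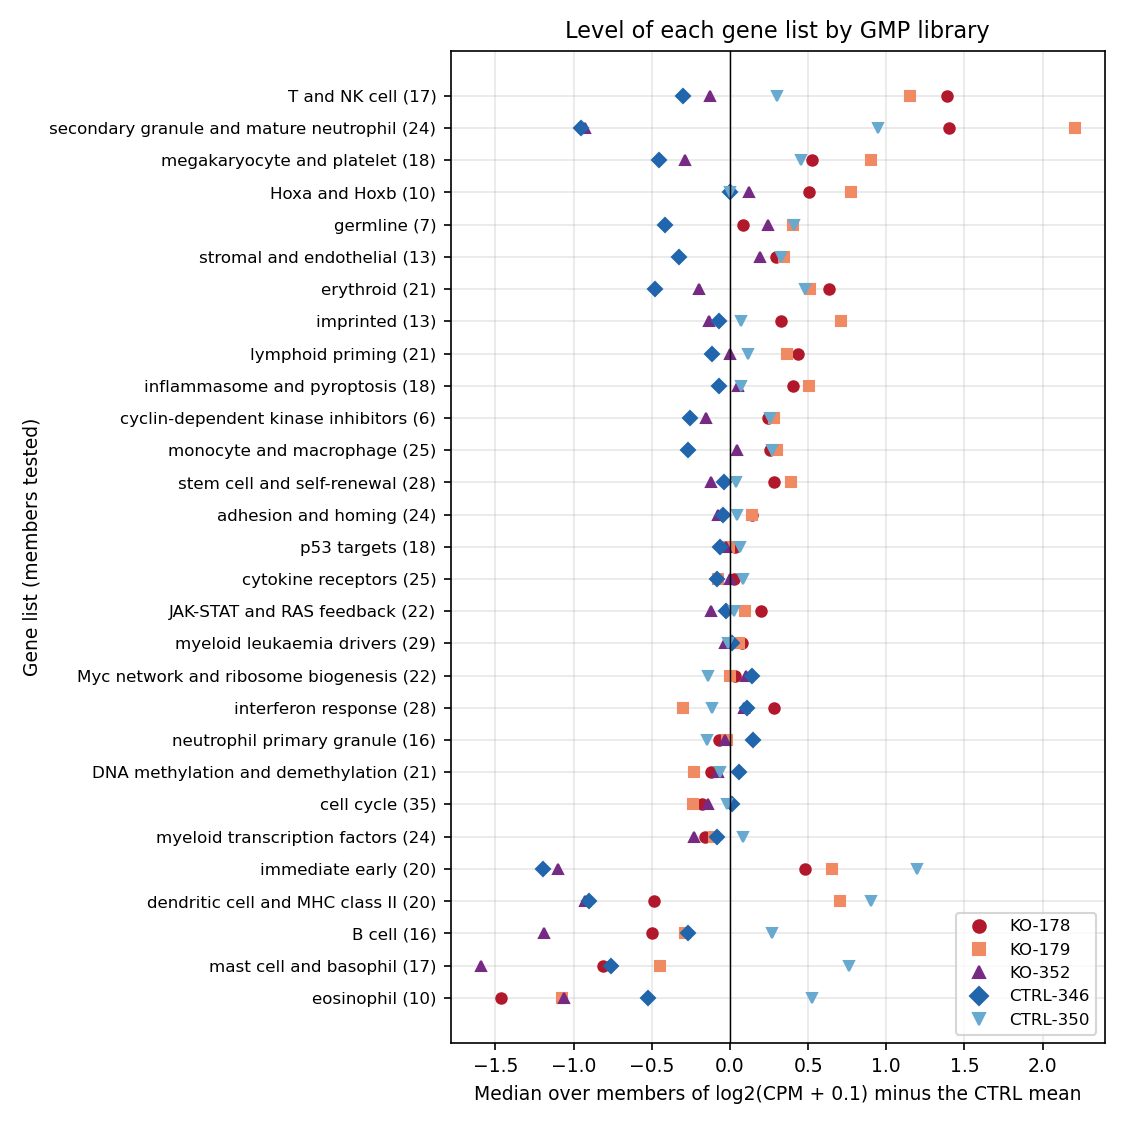
Level of each gene list in each library, as the median over its tested members (number in brackets) of log2(CPM + 0.1) minus the CTRL mean, lists ordered by their median log2 fold change. The eosinophil list lies below both CTRL libraries in all 3 KO libraries, and in the lists of mature neutrophils, immediate early and dendritic cell genes KO-352 lies beside CTRL-346.

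Among the inflammasome genes the change of Naip6 was not accompanied by a call in any other member. Of 18 tested, 14 were positive and 6 (33.3%) fully above CTRL (median 0.32, 0.16 to 0.51, lowest without CTRL-346 and highest without CTRL-350), and Naip6 alone was called. Nlrc4, the partner of the NAIP sensors, looked up after Naip6, was at 23, 29.1 and 14.5 CPM in KO against 18.5 and 20.9 CPM in CTRL. The sensor gene Nlrp10 was at 4.25, 6.27 and 5.2 CPM in KO against 2.74 and 2.96 CPM in CTRL, and the cytokine gene Il18 at 1.28, 1.3 and 1.3 CPM in KO against 0.399 and 0.721 CPM in CTRL, both above CTRL in each KO library (edgeR adjusted p = 0.30 and 0.31).

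Cell cycle genes were mostly slightly lower. Of 35 tested, 29 were negative and 10 were below CTRL in all KO libraries (28.6%, against 15.1% of all genes), with a median of −0.19 that stayed between −0.23 and −0.13 when any 1 library was left out. None was called. The mitotic kinase gene Plk1 was at 36.9, 31.8 and 36.7 CPM in KO against 48.2 and 47.1 CPM in CTRL, the topoisomerase gene Top2a at 1402, 1266 and 1206 CPM in KO against 1463 and 1552 CPM in CTRL and the replication helicase gene Mcm5 at 422, 375 and 575 CPM in KO against 768 and 573 CPM in CTRL. Mki67, the proliferation marker, was at 1175, 1266 and 746 CPM in KO against 886 and 1174 CPM in CTRL and overlapped between groups. The cell cycle inhibitor gene Cdkn2c (p18) was at 16, 16.6 and 7.92 CPM in KO against 34.8 and 42.8 CPM in CTRL (log2 fold change −1.52 ± 0.31, edgeR adjusted p = 0.26), while the 6 tested inhibitor genes had a median of 0.20 that was −0.19 without CTRL-346, −0.08 without KO-179 and −0.14 with the term for reads outside genes. Of 18 targets of p53, the median was 0.06 (−0.05 to 0.28); Bbc3 (Puma) was at 0.449, 0.236 and 0.435 CPM in KO against 0.831 and 0.919 CPM in CTRL and Pmaip1 (Noxa) at 7.32, 11.9 and 5.56 CPM in KO against 2.55 and 4.88 CPM in CTRL.

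Genes of growth factor signalling held no call. Myc was at 211, 183 and 177 CPM in KO against 128 and 113 CPM in CTRL (log2 fold change 0.66 ± 0.13, edgeR adjusted p = 0.26), and the kinase gene Pim1 at 149.9, 95.7 and 77.6 CPM in KO against 41.4 and 29 CPM in CTRL, both higher in each KO library, while the Myc network and ribosome biogenesis list as a whole had a median of −0.02 over 22 genes (−0.06 to 0.14), with 7 (31.8%) fully above and 3 (13.6%) fully below CTRL. Feedback genes of JAK-STAT and RAS signalling had a median of 0.02 (−0.06 to 0.13) over 22, with 11 positive; Socs3, an inhibitor of cytokine signalling, was at 5.86, 3.11 and 1.78 CPM in KO against 0.636 and 1.31 CPM in CTRL. Adhesion and homing genes had 15 positive of 24 and a median of 0.08 (0.03 to 0.26), with 5 (20.8%) fully above and 1 (4.17%) fully below CTRL. Cd47, the signal against phagocytosis, was at 577, 640.4 and 470.3 CPM in KO against 410.4 and 376 CPM in CTRL, and Selplg, the selectin ligand gene, at 102, 85.8 and 117 CPM in KO against 147 and 154 CPM in CTRL.

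Interferon response genes, which poly(I:C) induces, had 14 positive and 14 negative of 28 and a median of −0.03 (−0.12 to 0.09), with 6 (21.4%) fully below and 1 (3.57%) fully above CTRL. None was called. Stat2, which encodes a transcription factor of the type I interferon response, was at 29.5, 26.6 and 38.2 CPM in KO against 42.2 and 44.7 CPM in CTRL, below CTRL in all KO libraries. Immediate early genes, which respond within minutes to handling and stimulation, followed libraries: the list stood at 0.48, 0.65 and −1.10 in KO against −1.20 and 1.20 in CTRL. Its median of −0.31 was 1.38 without CTRL-350 and −0.95 without CTRL-346. Jun was at 67.2, 59.6 and 8.12 CPM in KO against 6.18 and 107 CPM in CTRL, with KO-352 and CTRL-346 low and the other 3 high, and Junb at 8.34, 4.58 and 6.22 CPM in KO against 9.19 and 22.1 CPM in CTRL. Imprinted genes had a median of 0.35 over 13 tested (of 25). This median was 0.01 without KO-179 and 0.57 without CTRL-350. It was 0.08 with at least 1 CPM in 2 libraries required and 0.03 with the term for reads outside genes. Among them Impact was at 30.3, 36.6 and 29.9 CPM in KO against 25.7 and 19.4 CPM in CTRL. Of 23 germline genes, a class that DNA methylation keeps silent in body cells, 7 passed the filter on low counts and 5 had no read at all. Of the 7 tested, 4 were positive and 3 negative, with a median of 0.58 (0.04 to 1.42). Over the members with at least 1 CPM in 2 libraries the median was −1.69. Of all 7, 3 (42.9%) were fully above CTRL and 0 fully below, and none was called. The filter can admit members near the floor through the group where they are high alone, so this share says little. Tdrd1 was at 0.0956, 0.126 and 0.142 CPM in KO against 0.0324 and 0.0418 CPM in CTRL, low in every library. Only through KO libraries did Tdrd1 pass the filter. Tex14 went the other way, at 2.07, 1.6 and 1.15 CPM in KO against 1.36 and 9 CPM in CTRL, high in CTRL-350 alone. The 29 tested drivers of myeloid leukaemia had a median of 0.01 (−0.01 to 0.05).

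A few genes were high in 1 library only. With at least 1 CPM and at least 16 times the highest of the other 4 libraries (0.1 CPM added), KO-178 had 4 such genes, KO-179 had 2 and the other libraries had 0. Those of KO-178 were 3 neighbours on chromosome 11, the antisense RNA gene BC018473, the sialyltransferase gene St6galnac1 (116765025 to 116775507) and the pseudogene Gm11735, together with the immunoglobulin constant gene Ighg3. St6galnac1 had 1932 reads (18.5 CPM) in KO-178 and 1 read over the other 4 libraries, and Ighg3 had 235 reads in KO-178 and 6 over the others. In KO-179 both were immunoglobulin variable genes, Ighv3-6 with 385 reads and Igkv6-23 with 218. The chromosome 11 genes were therefore a feature of 1 of the 3 KO libraries, for which there is no replicate.

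The KO effect in GMP was set beside that in LSK cells (Lin− Sca1+ cKit+, the stem cells and earliest progenitors) of the same study, 3 KO and 2 CTRL libraries. Over 18836 genes in both tables, 5 had a KO effect that differed between LSK and GMP at an adjusted p of 0.05, of which 4 are described here. Naip6 was at 15.3 and 15.1 CPM in the LSK CTRL libraries and 9.91, 8.65 and 11.3 CPM in the LSK KO libraries: the gene that was near 0 in CTRL GMP was expressed in LSK of both genotypes, and its KO effect in LSK minus that in GMP was −8.54 ± 0.41 (edgeR adjusted p = 1.79e-05). Ppp1r9a was at 90.8 and 101 CPM in the LSK CTRL libraries and 103, 101 and 104 CPM in the LSK KO libraries, with no overlap with the lower levels in GMP of 6.85 to 18.8 CPM (difference −1.28 ± 0.13, adjusted p = 0.01). Calml4 was at 1.26 and 1.43 CPM in the LSK CTRL libraries and 1.32, 0.889 and 1.07 CPM in the LSK KO libraries (difference −3.90 ± 0.43, adjusted p = 0.015), and Hdc at 23.7 and 23.9 CPM in the LSK CTRL libraries and 22.2, 23.1 and 23.6 CPM in the LSK KO libraries (difference 0.98 ± 0.11, adjusted p = 0.015). For Calml4 and Hdc the difference did not pass with limma-voom (adjusted p = 0.20 and 0.13), for Naip6 and Ppp1r9a it did (0.027 for both). The LSK and GMP tables were counted on different annotations and at different depths, so levels across them are values side by side only.

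For 3 genes that were higher in KO GMP without passing, picked after their values were seen, LSK levels lay above those of CTRL GMP. Flt3 was at 582 and 459 CPM in the LSK CTRL libraries and 585, 457 and 457 CPM in the LSK KO libraries, Slc30a4 at 61.3 and 55.2 CPM in the LSK CTRL libraries and 60.7, 66.4 and 57.3 CPM in the LSK KO libraries and Cd38 at 4.33 and 6.1 CPM in the LSK CTRL libraries and 5.27, 5.37 and 5.11 CPM in the LSK KO libraries. Dnmt3a was at 169 and 168 CPM in the LSK CTRL libraries and 64, 57.8 and 65.5 CPM in the LSK KO libraries, and its KO effect did not differ detectably between the populations (0.05 ± 0.50, edgeR adjusted p = 0.995). Smoc2 had 0 reads in all 5 LSK libraries. Hist1h4m was at 0.0341 and 38 CPM in the LSK CTRL libraries and 41.5, 0.137 and 0 CPM in the LSK KO libraries. Its level thus varied widely within each genotype in LSK.

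**Figure D4:**
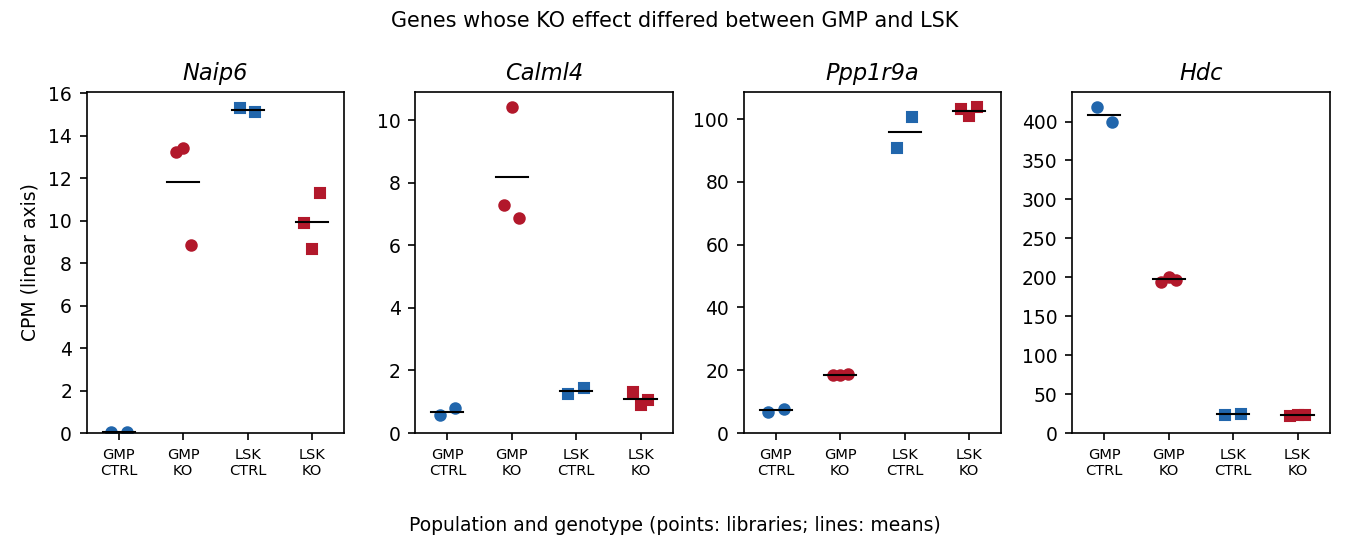
CPM (linear axes from 0) of the 4 genes in GMP and LSK by genotype; points are libraries and lines are means. Naip6 is near 0 in CTRL GMP alone, Calml4 is high in KO GMP alone, Ppp1r9a is lower in GMP than in LSK and Hdc is highest in CTRL GMP. GMP and LSK CPM were scaled separately, so levels across them are side by side only.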

How the data were processed

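RNA-seq of sorted GMP gave 5 libraries (3 KO, 2 CTRL). The authors deposited raw read counts per Ensembl gene, on build mm10 (GRCm38). Per the submitters' processing notes, the tools were STAR, DESeq (1.18.0), DESeq2 (1.4.5) and HTSeq (0.5.3p3), listed without roles; the kit marks strand, and how strand was counted is not stated. Their deposited normalized signal matches each library's counts over a single factor (tolerance 0.1%, met by 99.9% of genes) and was used only to obtain these factors. Lines of totals that name no gene (8.50% to 16.1% of reads outside genes, 26.3% to 29.0% aligned to several places, 1.14% to 1.32% ambiguous) were left out.

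Of 38924 genes, 17290 passed filterByExpr (minimum count 10) and were tested with edgeR 4.0.16 (R 4.3.3), TMM and the quasi-likelihood test, two-sided, Benjamini-Hochberg adjusted, threshold 0.05, with 3 residual degrees of freedom; SE is the log2 fold change over the square root of F. LSK counts (45513 genes, 38086 IDs shared) entered the difference of KO effects, 1 mean per group, all 10 libraries. The LSK CPM printed were scaled by TMM over the LSK libraries alone, apart from the GMP libraries. Symbols and coordinates (1-based) are from GENCODE vM21, found for 37607 IDs.

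The 29 gene lists and the genes named were chosen with earlier results of these data known. The naming rule took Dnmt3a, called genes and up to 10 per direction by p (separated, mean of at least 1 CPM, no predicted or pseudogene symbol). It also took up to 8 per direction among calls without KO-352, with the same filters and separation over all GMP libraries, KO-352 included. It further took leading list members, genes of 1 library and gate markers. A few of the genes it takes, 1 called gene among them, are not reported here. Fold changes are printed for a subset drawn up after values were seen. Alternatives were RLE or the authors' size factors, no filter, at least 1 CPM in 2 libraries, DESeq2 1.42.0, limma-voom 3.58.1, a term for reads outside genes, and leaving out each library. As a check for duplicate deposits only, counts were compared by chi-square over genes (at least 62.0 per degree of freedom in every pair), and none was counted as a copy.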

Additional observations from a re-analysis of the deposited data

Results flagged for a closer look

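The effect of the KO differed between GMP and LSK, by the test of the difference itself in the fit of all 10 libraries, for 4 of the genes described: Naip6 (KO effect in LSK minus that in GMP −8.54 on the log2 scale, edgeR adjusted p = 1.79e-05), Calml4 (−3.90, adjusted p = 0.015), Hdc (0.98, adjusted p = 0.015) and Ppp1r9a (−1.28, adjusted p = 0.010). In each the GMP libraries of KO and CTRL did not overlap.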

How the results depend on the processing

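Over all 154 genes the naming rule takes, 135 kept their direction in every alternative, with 42 reversals in the others. Fold changes are discussed for 87 of them, a subset drawn up after the reversals were known, of which 84 kept theirs, so that figure is no measure of stability. Of these 87, S100a9 turned to −0.60 and Mki67 to −0.25 with a term for reads outside genes, and Jun to 0.33 with limma-voom. Without single libraries Mki67 ran from −0.15 to 0.25 and Jun from −1.26 to 2.84. Counts of calls depended on the analysis (main: 6, 4 higher and 2 lower). They were 50 (33 and 17) with no filter, 721 (441 and 280) with DESeq2, 205 (72 and 133) with the term for reads outside genes, and 0 (0 and 0) with limma-voom, where 2297 genes had an unadjusted p under 0.05. Without single libraries they ran from 1 (without CTRL-350) to 172 (without KO-352), higher from 1 to 116 and lower from 0 to 56. All 6 genes were among the calls of every edgeR fit with all 5 libraries and of DESeq2. Genes at an unadjusted p under 0.05 numbered 2387 and ran from 1000 (without KO-178) to 4211 (without KO-352). Separated genes ran from 3224 to 6058 (higher) and from 3001 to 6225 (lower), since fewer libraries separate more easily. Dnmt3a ran from −1.85 to −1.14 and passed without KO-352 alone (adjusted p = 0.049). Differences of KO effects between populations numbered 5, with 2 by limma-voom and 38 with no filter. Genes of 1 library numbered 6 at 16 times and 14 at 8 times the other libraries. No paired analysis was possible because KO and CTRL share no number in the labels. With 1 CTRL library left, it is assumed to vary like the KO libraries. The causes of these changes were not tested.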
